A study of Mus musculus with 3 samples.

Results

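The endoplasmic reticulum (ER) is where secreted and membrane proteins are folded. Messenger RNA levels were compared for 10 mouse genes of ER protein folding: the chaperone genes Hspa5, Hsp90b1, Calr and Canx, the disulfide isomerase genes Pdia3, Pdia4 and Pdia6, the cochaperone genes Dnajb9 and Sdf2l1, and Xbp1, which encodes a transcription factor of the ER stress response. They were chosen by name and found by Entrez gene number, and are 10 of 17997 genes listed in any of 3 RNA-seq tables. All 10 were listed in all 3 libraries.

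The libraries were made from total RNA of 46C embryonic stem cells (strain 129), a mouse line with a fluorescent reporter at the Sox1 locus, grown with serum and leukemia inhibitory factor on gelatin. All cultures had been transfected. The empty vector P2 library came from cells that received the empty PB vector and were collected at passage 2. The Lef1 P2 and Lef1 P5 libraries came from cells that received lef1 (PB-Lef1) and were collected at passages 2 and 5. Lef1 encodes a transcription factor through which Wnt and beta-catenin act on genes. The labels name neither the promoter that drives lef1 nor whether the cultures were clones or pools. With 1 library per group there was no replicate, so nothing was tested, and every comparison below describes these libraries. Between Lef1 P5 and empty vector P2 the effects of lef1 and of passage cannot be told apart, because no empty vector culture of passage 5 is among the libraries.

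Hspa5 encodes BiP, the Hsp70 chaperone of the ER lumen, and Hsp90b1 encodes its Hsp90 partner, also called GRP94 or endoplasmin. Calreticulin and calnexin, the products of Calr and Canx, hold newly made glycoproteins through their sugar chains, and the protein disulfide isomerases form and rearrange disulfide bonds. When unfolded proteins accumulate, the sensors IRE1, PERK and ATF6 start the unfolded protein response. IRE1 splices Xbp1 messenger RNA into the form that encodes the active factor, and XBP1 and ATF6 then induce ER chaperone genes through elements such as the ER stress response element (ERSE). A gene table does not separate the spliced from the unspliced Xbp1 transcript.

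The promoters are shown first because the ERSE is the sequence through which several of these genes are known to respond together. RefSeq promoters (GRCm38.p6), from 250 bases before to 50 bases after the annotated transcription start, were matched for all 10 genes. The ERSE was searched on both strands as CCAAT, any 9 bases and CCACG, without a mismatch. It occurred in 5 of the 10 promoters, 6 times in all, and in 39 of 32851 promoters (0.119%) in the whole table, or 37 of 27025 genes. In the stretches below, given 5′ to 3′ on the strand of the gene, capitals mark the fixed letters of the element or of its reverse complement.
Hspa5: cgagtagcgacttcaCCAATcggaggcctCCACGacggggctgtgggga
Calr: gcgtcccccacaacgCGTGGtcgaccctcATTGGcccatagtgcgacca
Canx: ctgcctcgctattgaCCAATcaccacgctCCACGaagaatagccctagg
Pdia6: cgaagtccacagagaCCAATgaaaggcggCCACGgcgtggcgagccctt
Hsp90b1: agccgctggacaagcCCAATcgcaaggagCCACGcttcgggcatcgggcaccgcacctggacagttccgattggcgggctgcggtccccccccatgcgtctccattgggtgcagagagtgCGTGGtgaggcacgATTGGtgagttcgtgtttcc

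The Hspa5 stretch lies at chr2:34772010-34772058 on the plus strand, 80 to 32 bases before the start of transcription. That of Calr lies at chr8:84847060-84847108 (minus strand, 177 to 129 bases before the start), with the element in reverse. The Canx stretch is chr11:50325785-50325833 (minus strand, 160 to 112 bases before) and the Pdia6 stretch is chr12:17266476-17266524 (plus strand, 113 to 65 bases before). Hsp90b1, at chr10:86705518-86705671 (minus strand, 227 to 74 bases before), is the gene among the 10 with more than 1 match, 1 in each direction. The other 5 promoters (Pdia3, Pdia4, Xbp1, Dnajb9 and Sdf2l1) had no exact match to these letters in this window. None of the 10 had ERSE-II (ATTGG, any 1 base and CCACG, in 0.0365% of all promoters) or TGACGTGG (a UPRE sequence, in 0.676%), each searched on both strands. A match is a description of the letters and does not show that a factor was bound.

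Levels are in FPKM, which divides fragments by transcript length and library size and so lets genes of different length be compared. The highest of the 10 was 54.3 times the lowest in empty vector P2. The order there was Hsp90b1, Calr, Hspa5, Pdia6, Canx, Pdia3, Pdia4, Sdf2l1, Xbp1 and Dnajb9, from 374 down to 6.89 FPKM. The 6 highest each stood above at least 97.3% of the listed genes, whereas Dnajb9 was above 53.7%. Canx and Pdia3 (154 and 153 FPKM), and Sdf2l1 and Xbp1 (32.0 and 26.9 FPKM), had overlapping counting intervals, so their order there is not resolved. The same neighbours stood in the opposite order in Lef1 P2, again with overlapping intervals. In Lef1 P5 both pairs were apart, and the intervals of Hsp90b1 and Calr overlapped. Intervals in parentheses after levels are exact Poisson 95% intervals of the expected counts. Those after ratios between libraries are exact 95% intervals from both read counts, unless another method is named. All cover counting error only. They make no allowance for copies made by amplification, which are not independent molecules.

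**Figure D1:**
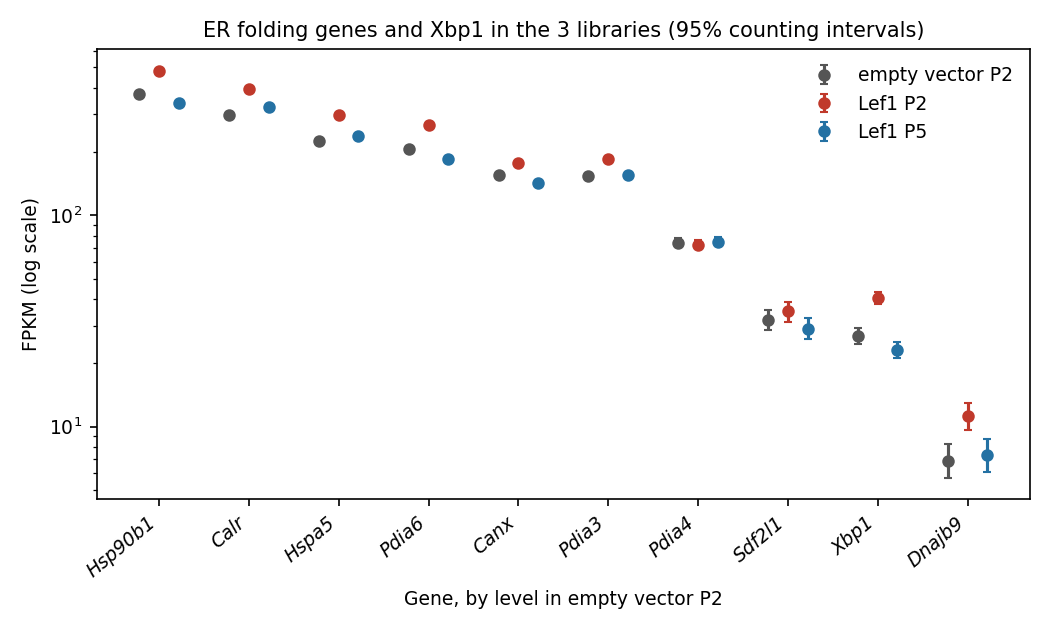
FPKM of the 10 genes (log axis) in the 3 libraries (1 per group), ordered by level in empty vector P2, with 95% counting intervals as bars. The red Lef1 P2 point is the highest of the 3 for every gene but Pdia4, whose 3 points lie between 72.6 and 75.0 FPKM.

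Expected counts summed to 9225401, 9170554 and 9380813 in the 3 libraries, lowest in Lef1 P2. Lef1 itself, endogenous and introduced transcripts not separated, was at 1.49 FPKM (1.10 to 1.98), 135 FPKM (131 to 139) and 214 FPKM (208 to 219), so the order of Lef1 across the libraries was not that of the 10 genes.

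Lef1 P2 had more messenger RNA of these genes than empty vector P2, by amounts under 2-fold. Their sum was 1551 FPKM with the empty vector, 1961 FPKM for Lef1 P2 and 1516 FPKM for Lef1 P5, or 0.391%, 0.489% and 0.380% of all expected counts. As deposited, 9 of the 10 were higher in Lef1 P2 than in empty vector P2, with counting intervals apart for 8 (all but Sdf2l1). Intervals were apart for 34.5% of the 10651 genes that could be called in the higher direction, and for 22.5% in the lower one. Among genes at 20 FPKM or more in either library these were 7 of 9 of the set, against 31.6% higher and 37.3% lower of 4609 genes. No gene of the 10 was called higher or lower, which required a 2-fold ratio on the log2(FPKM + 1) scale with at least 3 FPKM and 20 reads in the higher library. The background was 6.49% higher and 1.82% lower. At 1.5-fold on the same scale Dnajb9 was past the threshold, higher, against 17.5% of genes higher and 8.03% lower. Xbp1, at 0.58 on this scale, just missed it, and was past it without the added 1 FPKM. The median log2 ratio of the 10 was 0.37, against 0.11 over the 12894 genes at 1 FPKM or more in any library.

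Markers of other cells did not all follow the 10 genes. Endoderm and trophoblast markers had their highest sum in Lef1 P2, and fibroblast and neural markers in empty vector P2. Of 20 endoderm markers 18 were measured, and 16 of these were called higher in Lef1 P2 against empty vector P2 and 9 in Lef1 P5, with 15 called lower in Lef1 P5 than in Lef1 P2. Their summed level was 290 FPKM in empty vector P2, 2239 FPKM in Lef1 P2 and 660 FPKM in Lef1 P5, with Afp and Ttr not listed in any library. The part of such cells in the levels of the 10 genes was not tested, and in bulk RNA more cells of a type and more RNA per cell cannot be told apart. The 12 pluripotency markers of the labelled cell type were all listed and summed to 6489, 5874 and 6401 FPKM. Most of each sum was Dppa5a (3771, 3818 and 3816 FPKM), so the sum says little of the others. In Lef1 P2 against empty vector P2, 6 of the 12 had a log2 ratio above 0 and 6 below. Pou5f1 (1135, 704 and 1062 FPKM) and Utf1 (394, 203 and 297 FPKM) were lowest in Lef1 P2. Tbx3 was the 1 of the 12 called, higher in Lef1 P2. Fibroblast markers (4 of 10 measured) summed to 20.7, 15.9 and 10.4 FPKM, with 0 called in Lef1 P2 and Thy1 called lower in Lef1 P5 against empty vector P2 (15.7 and 7.21 FPKM). Neural markers (6 of 9) summed to 46.8, 26.5 and 33.7 FPKM, with Nes called higher and Neurod1 and Sox11 lower in Lef1 P2, and Neurod1 also lower in Lef1 P5. Trophoblast markers (5 of 8) summed to 22.5, 27.3 and 16.7 FPKM, with Krt7 called higher in Lef1 P2 and lower from there to Lef1 P5. The difference of Krt7 between empty vector P2 and Lef1 P2 (1.68 and 7.01 FPKM) was larger than that of the sum. There 3 of the 5 had a log2 ratio above 0, and Tfap2c (12.4 and 12.3 FPKM) and Ascl2 (6.2 and 3.8 FPKM) had one below 0. Lum and Postn (fibroblast), Dcx (neural) and Elf5 (trophoblast) were not listed in any library.

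The main lumenal chaperones had similar ratios in Lef1 P2 but not in Lef1 P5. Hspa5 (Entrez gene 14828) measured 225 FPKM (219 to 231) with the empty vector, then 297 FPKM (290 to 304) at Lef1 P2 and 236 FPKM (230 to 243) at Lef1 P5. Lef1 P2 was thus high, at 1.32 times empty vector P2 (1.27 to 1.37), and Lef1 P5 lay at 1.05 times (1.01 to 1.09). Hsp90b1 (Entrez gene 22027), the most abundant of the set, was at 374 FPKM (366 to 382), 479 FPKM (471 to 488) and 338 FPKM (331 to 345). Its Lef1 P2 level was 1.28 times that of empty vector P2 (1.25 to 1.32), while Lef1 P5 was the lowest library at 0.903 times (0.877 to 0.930), so the 3 intervals were all apart.

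The lectin chaperones of the calnexin cycle differed from each other. Calr (Entrez gene 12317) was at 299 FPKM (290 to 307), 395 FPKM (385 to 404) and 325 FPKM (317 to 333), in the same order of libraries. It was 1.32 times as high in Lef1 P2 (1.28 to 1.37) and 1.09 times as high in Lef1 P5 (1.05 to 1.13), and is the gene among the 10 whose Lef1 P5 interval lay wholly above that of empty vector P2. Canx (Entrez gene 12330), the membrane-anchored counterpart, was at 154 FPKM (150 to 158), 177 FPKM (173 to 181) and 143 FPKM (139 to 146). Its Lef1 P2 ratio of 1.15 (1.11 to 1.19) was smaller than that of Calr, with intervals of the ratios that did not overlap, and its Lef1 P5 level was below empty vector P2.

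Among the isomerases, as deposited, the pattern ranged from a clear difference in Lef1 P2 to none that could be resolved. Pdia6 (Entrez gene 71853) was at 207 FPKM (200 to 213), 268 FPKM (261 to 276) and 185 FPKM (179 to 191), with 3 intervals apart. Lef1 P2 was 1.299 times empty vector P2 (1.25 to 1.35), and the difference between the Lef1 libraries was the widest of the 3 isomerases. Pdia3 (Entrez gene 14827), the isomerase that works with calnexin and calreticulin on glycoproteins, was at 153 FPKM (148 to 158), 185 FPKM (179 to 190) and 155 FPKM (151 to 160). Only its Lef1 P2 interval lay apart from the others, at 1.21 times empty vector P2 (1.15 to 1.26). Pdia4 (Entrez gene 12304), another soluble isomerase of the lumen, was at 74.2 FPKM (70.8 to 77.8), 72.6 FPKM (69.2 to 76.2) and 75.0 FPKM (71.6 to 78.6). Its 3 intervals overlapped, and the ratio of Lef1 P2 to empty vector P2 was 0.979 (0.915 to 1.05).

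Xbp1 and Dnajb9, the gene of the ER cochaperone ERdj4 and a known target of XBP1, had the highest ratios of the 10 in Lef1 P2 as deposited and with median-of-ratios and TMM. With quantile scaling Calr had the highest (0.68 on the log2 scale), and Xbp1 (0.60) and Dnajb9 (0.44) lay below Hspa5, Hsp90b1 and Pdia6 as well. Xbp1 (Entrez gene 22433) measured 26.9 FPKM (24.7 to 29.2), 40.6 FPKM (37.8 to 43.5) and 23.1 FPKM (21.1 to 25.2). Lef1 P2 was 1.51 times empty vector P2 (1.35 to 1.69), and 18.0% of the genes that could be called had a higher ratio. Dnajb9 (Entrez gene 27362) was at 6.89 FPKM (5.69 to 8.27), 11.2 FPKM (9.68 to 13.0) and 7.35 FPKM (6.12 to 8.76), from 115, 186 and 125 expected reads. Its ratio of 1.63 (1.29 to 2.08) had the widest interval of the 10, and 15.3% of genes had a higher one. Sdf2l1 (Entrez gene 64136), a partner of BiP cochaperones, was at 32.0 FPKM (28.6 to 35.7), 35.02 FPKM (31.4 to 39.0) and 29.1 FPKM (25.8 to 32.6), and its 3 intervals overlapped. Its ratio in Lef1 P2 was 1.09 (0.936 to 1.28).

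The 5 genes with an ERSE match had ratios of 1.15 to 1.32 between Lef1 P2 and empty vector P2, and the 5 without one ranged more widely, from 0.979 for Pdia4 to 1.63 for Dnajb9. Beyond the 10, the ERSE lay in the promoters of 15 further genes at 1 FPKM or more. Of these, 12 had a log2 ratio above 0 in Lef1 P2 against empty vector P2, and the median was 0.48 against 0.11 for all genes. Dnajc3, not with median-of-ratios or TMM, and Xlr3a were called higher, where 6.49% of all genes were. Genes with the other motifs had medians above that of all genes too, 0.51 for 8 genes with ERSE-II (1 called higher and 1 lower) and 0.37 for 106 genes with the UPRE sequence (14 called higher and 0 lower). For the 15 further ERSE genes, the median in Lef1 P5 against empty vector P2 was -0.11 and none was called. Relative to Lef1 P2 the median of these 15 in Lef1 P5 was -0.72, with Derl3, Dnajc3 and Xlr3a called lower. The 15 include the ER genes Dnajc3, Syvn1, Derl3, Ero1b and Creld2, named after their values were seen, but not every one of these was higher: Creld2 was at 51.4, 49.6 and 47.4 FPKM. Xlr3a has near-identical neighbours, so its level is uncertain. Its relatives Xlr3b and Xlr3c are counted as separate genes among the 15 and among the 12. The log2 ratios of Xlr3a, Xlr3b and Xlr3c in Lef1 P2 against empty vector P2 were 1.27, 0.90 and 0.73.

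In Lef1 P5 against empty vector P2, none of the 10 was called, where 1.4% of 10121 genes were called higher and 1.28% lower. Their median log2 ratio was -0.05, against -0.02 for all genes, with 5 ratios above 0 and 5 below. Counting intervals lay apart and higher for Calr, and apart and lower for Hsp90b1, Canx and Pdia6, against 16.3% of genes apart and higher and 20.5% apart and lower. At 20 FPKM or more the background was 22.4% and 23.6%, with the same 4 genes apart. None of the 10 passed 1.5-fold, which 4.31% of genes did higher and 5.95% lower. Xbp1 had the lowest ratio, 0.859 (0.758 to 0.973).

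Between the Lef1 libraries, 9 of the 10 were lower in Lef1 P5 than in Lef1 P2 and Pdia4 was at 1.03 times (0.966 to 1.10). None was called, where 1.88% of 10593 genes were called higher and 6.86% lower. Intervals of the levels lay apart and lower for 8 genes, all but Pdia4 and Sdf2l1, against 38.6% of genes apart and lower and 21.5% apart and higher. At 20 FPKM or more 7 of 9 lay apart and lower, against 35% of genes lower and 37.1% higher. At 1.5-fold on the log2(FPKM + 1) scale Xbp1 was past the threshold, lower, against 20% of genes lower and 7.98% higher, and Dnajb9 was past it only as a plain ratio (0.654). Xbp1 was at 0.569 times its Lef1 P2 level (0.507 to 0.637) and Pdia6 at 0.688 times (0.659 to 0.719). Sdf2l1 was at 0.830 times (0.707 to 0.974), a ratio interval below 1 although its level intervals overlapped. The median was -0.32, and -0.17 for all genes. The 1 Lef1 P2 library enters both this comparison and that of Lef1 P2 with empty vector P2.

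**Figure D2:**
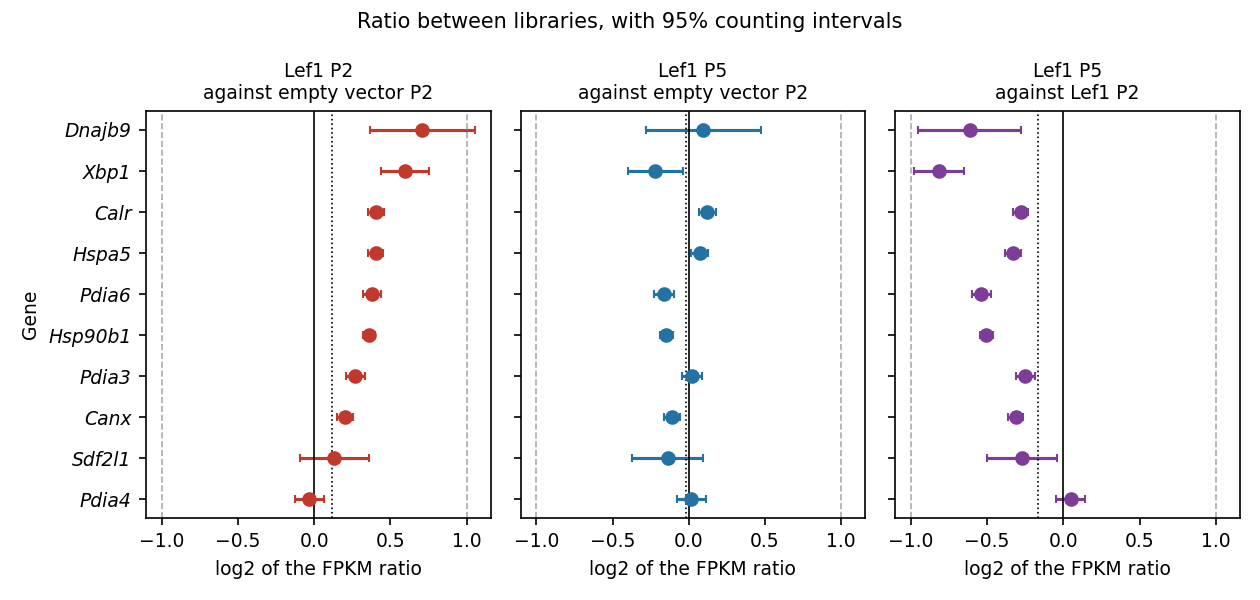
Log2 of the FPKM ratio of each gene in the 3 comparisons, with exact 95% intervals from the 2 read counts. The dotted line is the median over 12894 genes on the log2(FPKM + 1) scale and the dashed lines mark 2-fold. Of the 10 intervals, 8 lie above 0 in the first panel, 2 in the second and 0 in the third. Below 0 lie 0 in the first panel, 4 in the second and 9 in the third.

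How libraries are scaled to each other moved these ratios. Among all genes, 78.1% of the calls in Lef1 P2 against empty vector P2 were higher as deposited, but 62.3% with median-of-ratios, 62.4% with TMM (trimmed mean of M values) and 59.5% with quantile scaling. There all genes had a median log2 ratio of 0.11, and -0.03, -0.02 and -0.02 with these scalings. Between the Lef1 libraries the higher share was 21.5%, and 45.8%, 44.0% and 40.8%, with a median of all genes of -0.17, and 0.01, -0.01 and 0.0048 after scaling. Relative to the median of all genes, the 10 genes lay 0.25 higher on the log2 scale in Lef1 P2 against empty vector P2 as deposited, 0.23 under median-of-ratios and also TMM, and 0.56 with quantile scaling. With median-of-ratios and TMM 8 of the 10 ratios stayed above 0. Sdf2l1 turned to -0.03 and Pdia4 moved from -0.03 to -0.19 in both. Pdia3 fell to 0.11 in both. Canx fell from 0.20 (0.15 to 0.25) to 0.04 in both, where an interval of that width would reach 0. With quantile scaling all 10 were above 0, Pdia4 turning to 0.06. From Lef1 P2 to Lef1 P5 the 10 genes lay 0.15 lower than all genes as deposited, with values of -0.12, -0.13 and -0.60 under the other scalings. Pdia4 was at 0.25 and 0.23 there with median-of-ratios and TMM.

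The most abundant Hsp70 genes outside the ER, Hspa8 and Hspa9, and the Hsp90 genes Hsp90ab1, Hsp90aa1 and Trap1 were lower in Lef1 P2 than in empty vector P2, except Hspa9 with quantile scaling (0.04 on the log2 scale). Not every Hsp70 relative was lower as deposited: Hspa4l was at 2.58 and 4.83 FPKM. Hspa2 (3.94 and 4.66 FPKM) and Hspa14 (68.9 and 70.02 FPKM) had overlapping counting intervals, so no difference was resolved for them. A ratio of FPKM values within 1 library does not depend on linear scaling between libraries. Hspa8, the constitutive Hsp70 gene of the cytosol, was at 2857, 1543 and 2401 FPKM in the 3 libraries. The level of Hspa5 relative to Hspa8 was 0.0787, 0.193 and 0.0984, that is 2.45 times as high in Lef1 P2 as in empty vector P2 (2.35 to 2.54, from a normal approximation on the log scale). Relative to Hspa9, the mitochondrial Hsp70 gene (294, 254 and 298 FPKM), Hspa5 was 1.53 times as high (1.46 to 1.60). Both ratios were highest in Lef1 P2, with quantile scaling too.

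Hsp90b1 was compared in the same way with the cytosolic Hsp90 genes, Hsp90ab1 (2152, 1633 and 2010 FPKM) and Hsp90aa1 (1466, 896 and 1387 FPKM), and with the mitochondrial Trap1 (111, 66.7 and 95.5 FPKM). In Lef1 P2 its level relative to these was 1.69 times (1.64 to 1.74), 2.10 times (2.03 to 2.16) and 2.13 times (1.99 to 2.29) that in empty vector P2. In Lef1 P5 the same ratios were 0.967, 0.954 and 1.05 times those of empty vector P2. Within the ER set, Xbp1 relative to Hspa5 was 0.119, 0.137 and 0.0977 in the 3 libraries, lowest in Lef1 P5; with quantile scaling they were 0.124, 0.121 and 0.109.

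**Figure D3:**
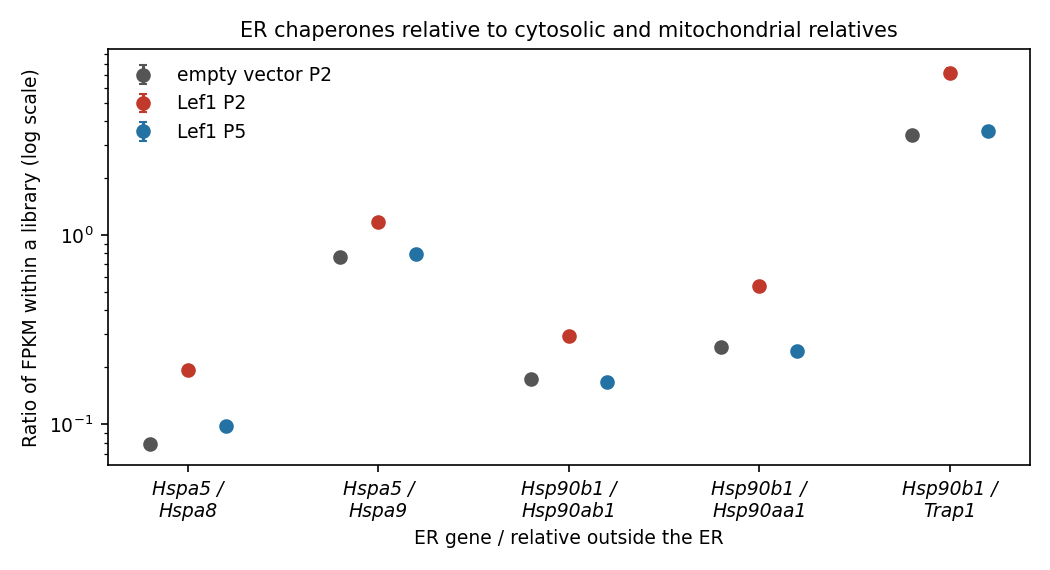
Ratio of the FPKM of an ER chaperone gene to that of a cytosolic or mitochondrial relative within each library (log axis), with 95% counting intervals, most of them smaller than the points. Lef1 P2 is the highest of the 3 libraries for all 5 pairs; for Hspa5 over Hspa8 the values are 0.0787, 0.193 and 0.0984.

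Over the list of 27 cytosolic and mitochondrial chaperone genes, 22 had a log2 ratio below 0 in Lef1 P2 against empty vector P2, with a median 0.51 below that of all genes. The mitochondrial chaperonin gene Hspd1 was the 1 called lower (489 and 215 FPKM). Hspa8 joined it with median-of-ratios and TMM. With quantile scaling 0 were called and the median lay 0.29 below. At Lef1 P5 against empty vector P2 these genes had a median 0.06 above all genes and none was called. Against Lef1 P2, 24 of the 27 had a log2 ratio above 0 in Lef1 P5 and Hspd1 alone was called higher, at 527 FPKM. Hspa4, Dnaja1, Cct3 and Cct6a joined it with median-of-ratios and TMM, and 0 were called with quantile scaling. For this list and those below, 6.49% of all genes were called higher and 1.82% lower in Lef1 P2 against empty vector P2. The shares were 1.4% and 1.28% in Lef1 P5 against empty vector P2, and 1.88% and 6.86% in Lef1 P5 against Lef1 P2.

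The other disulfide isomerases and oxidases of the ER differed more than the 10 genes did. Of 15 at 1 FPKM or more, 7 were called higher and 0 lower in Lef1 P2 against empty vector P2, and the median lay 0.87 above that of all genes, from 0.86 to 0.92 with the other scalings. Qsox1, a sulfhydryl oxidase of the secretory pathway, was at 4.89 FPKM (4.11 to 5.77), 24.6 FPKM (22.7 to 26.6) and 5.68 FPKM (4.81 to 6.67), 5.03 times as high in Lef1 P2. Txndc12, a small thioredoxin-fold protein of the lumen, was at 29.1, 90.6 and 53.2 FPKM, and Pdia5, a further isomerase, at 11.7, 36.4 and 13.97 FPKM. P4hb, which encodes the founding isomerase and is also the beta subunit of collagen prolyl 4-hydroxylase, was at 153 FPKM (148 to 158), 331 FPKM (323 to 338) and 192 FPKM (187 to 198). Ero1a, the oxidase that recharges the isomerases, was at 21.4, 50.2 and 26.8 FPKM. The remaining called genes were Txndc11 and Tmx1, and P4hb and Tmx1 were not called with median-of-ratios or TMM. None of the 15 was called in Lef1 P5 against empty vector P2. Relative to Lef1 P2, 3 were called lower in Lef1 P5, namely Qsox1, Pdia5 and Txndc11, with P4hb and Txndc5 added by quantile scaling.

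Of 22 other ER chaperone and cochaperone genes, 18 had a log2 ratio above 0 in Lef1 P2 against empty vector P2, and the median lay 0.26 above all genes, or 0.39 with quantile scaling. Those called higher were Dnajc25 (1.16 and 3.83 FPKM; not with quantile scaling) and Dnajc3, a BiP cochaperone also known as an inhibitor of PERK (9.65 and 22.5 FPKM; not with median-of-ratios or TMM), and the collagen-binding prolyl isomerase gene Fkbp10 was called lower (15 and 6.43 FPKM). Fkbp10 was also the 1 gene called in Lef1 P5 against empty vector P2, lower at 6.81 FPKM, and not with median-of-ratios or quantile scaling. Lower in Lef1 P5 than in Lef1 P2 were Fkbp7, the BiP nucleotide exchange factor gene Sil1 (27.0 and 8.21 FPKM) and Dnajc3, the last as deposited only.

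**Figure D4:**
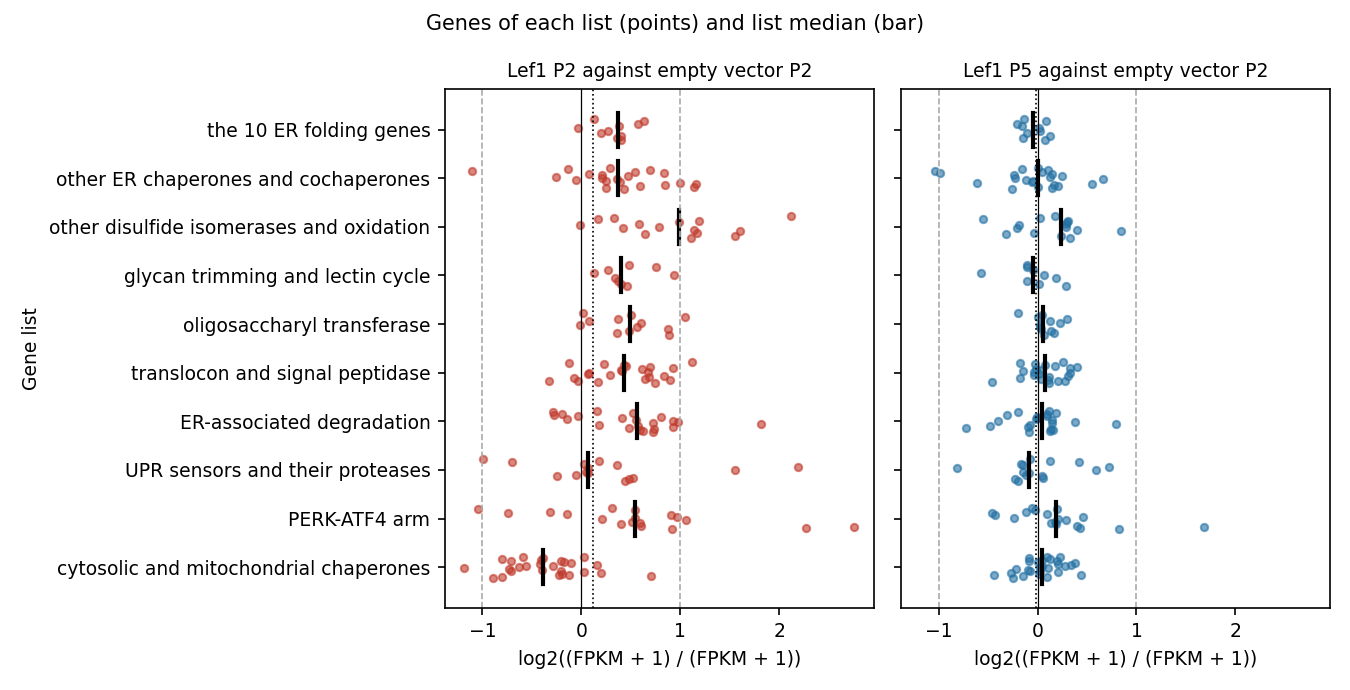
Log2((FPKM + 1)/(FPKM + 1)) of the genes of each list at 1 FPKM or more in any library (points) with the list median (bar), for Lef1 P2 and Lef1 P5 against empty vector P2, which both use the same empty vector library. The dotted line is the median of all genes; in Lef1 P2 the 10 ER folding genes lie at 0.37 and the cytosolic and mitochondrial chaperones at -0.39.

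Of the genes for protein entry, glycosylation and sugar trimming, 2 of 44 were called in Lef1 P2 against empty vector P2, both higher. The share over all genes was 6.49% higher, so 2 of 44 was no more than that. The log2 ratio was above 0 for 19 of 23 translocon and signal peptidase genes, 11 of 12 oligosaccharyl transferase genes and 9 of 9 genes of glycan trimming. Sec61g, a translocon subunit gene, was among those below 0, at 174 and 138 FPKM. Relative to all genes the median of the lists was 0.32, 0.38 and 0.29, and 0.50, 0.64 and 0.52 with quantile scaling. Tram1, a membrane protein at the translocon (21.98 and 48.8 FPKM), and Magt1, an oligosaccharyl transferase subunit (10.9 and 23.6 FPKM, counts not whole), were each the 1 called gene of their list, and neither was called with median-of-ratios or TMM, nor Magt1 with quantile scaling. None of these 44 genes was called in Lef1 P5 against empty vector P2, and Magt1 alone was called lower in Lef1 P5 than in Lef1 P2, as deposited only.

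The genes of ER-associated degradation, which removes misfolded proteins, had a median 0.45 above that of all genes in Lef1 P2 against empty vector P2, with 17 of 22 ratios above 0. Herpud1, a stress-induced membrane protein gene of this pathway, was the 1 called higher, at 4.6 FPKM (3.63 to 5.75), 18.7 FPKM (16.7 to 20.9) and 8.73 FPKM (7.38 to 10.2). None was called in Lef1 P5 against empty vector P2. Derl3 (10.4 and 3.99 FPKM), Edem1, Edem2 and Herpud1 were among those called lower in Lef1 P5 than in Lef1 P2. Of these 4, Derl3 alone was called with median-of-ratios and TMM, and 0 with quantile scaling.

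None of the sensor genes upstream was called in Lef1 P2 against empty vector P2. Ern1, the gene of IRE1, was at 3.56, 5.2 and 2.98 FPKM. Eif2ak3, the gene of PERK, was at 12.6, 17.96 and 10.6 FPKM, and Atf6 at 8.92, 13.3 and 9.34 FPKM. In each of these 3, Lef1 P2 was the highest library, at 1.43 to 1.49 times empty vector P2. Atf6b, which encodes the other ATF6 protein, was lowest in Lef1 P2, at 24.1, 20.1 and 24.8 FPKM. The list of 15 sensors, proteases and associated transcription factors had a median -0.04 relative to all genes, 0.18 with quantile scaling. Creb3l2 (3.82, 21.0 and 6.98 FPKM) and Creb3 (4.48, 15.1 and 7.25 FPKM), which encode ER-anchored transcription factors activated by cleavage, were called higher in Lef1 P2, and Gtf2i was called lower with each of the other scalings. From Lef1 P2 to Lef1 P5, Creb3l2 was called lower and the CCAAT-binding subunit gene Nfyc higher (15.9 and 35.6 FPKM); Gtf2i joined Nfyc with median-of-ratios and TMM.

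In the PERK-ATF4 arm, 2 of 18 genes were called higher and 1 lower in Lef1 P2 against empty vector P2, Chac1, Ddit3 and Slc7a11. Chac1, a glutathione-degrading enzyme gene, was at 1.63, 16.8 and 7.45 FPKM, and was the gene of the list called in Lef1 P5 against empty vector P2. Ddit3, the gene of the stress factor CHOP, was at 8.55 FPKM (6.60 to 10.9), 45.0 FPKM (40.4 to 50.1) and 11.9 FPKM (9.60 to 14.6). The median of the list lay 0.42 above that of all genes, and 0.20 above in Lef1 P5. Ddit3, Nupr1 (27.9 and 10.4 FPKM) and Chac1 were called lower and Slc7a11 higher in Lef1 P5 than in Lef1 P2. Chac1 was not called there with any of the 3 other scalings, and with quantile scaling Slc7a11 was not called in Lef1 P2 while Atf4 was called higher.

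By likeness of the pair of log2 ratios to empty vector P2, among 3474 other genes at 20 FPKM or more in every library, the 5 nearest to Hspa5 were Cenpf, Lrrc59, Agps, Hadh and Rrbp1. Their Euclidean distances were 0.0147 to 0.0292, and Calr stood at place 25 with 0.0507. Nearest to Xbp1 were Mvb12a, Pfkm, Spry4, Anln and Plxnb2, at 0.00416 to 0.0558, and the nearest of the 10 to it was Pdia6 at place 93. The measure rests on 3 libraries.

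In the RefSeq annotation Hspa5 overlaps Rabepk (6.38 to 8.98 FPKM), Pdia3 overlaps Catsper2 (0.10 to 1.25 FPKM), Pdia6 overlaps Atp6v1c2 (0.35 to 1.52 FPKM) and Pdia4 holds Mir704. Strand use in counting was not given in the sources used here, so reads of such neighbours cannot be told apart. The counts of the 10 genes were whole numbers except for Dnajb9 in Lef1 P5. The transcript length behind FPKM differed between libraries for Hspa5 (2560, 2551 and 2553 bases), Canx and Xbp1 by at most 0.335%.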

How the data were processed

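RNA-seq of 3 libraries was analysed, 1 per group, as mapped from the labels. Per the file headers, each deposited table gives an Entrez number, RefSeq transcripts, length, expected count and FPKM per gene. Bowtie 0.12.2 and build mm8 are named in the submitters' processing notes, per the labels. The counting program was not given in the sources used here. The deposited expected counts and FPKM were used as given, and a gene not listed was taken as 0. Symbols came from a RefSeq table of GRCm38.p6 (17951 of 17997 numbers matched), used for mm8 data only for names, neighbours and promoters.

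Ratios were log2((x + 1)/(y + 1)) of FPKM. Folds in the text are plain FPKM ratios. Intervals, at 95%, were exact Poisson (levels), exact Clopper-Pearson (ratios of 1 gene between libraries) and a normal approximation (ratios of 2 genes). The call rule and the intervals were checked on counts simulated with Poisson error alone, so spread between cultures was not part of that check. Named genes were the 10, the Hsp70 and Hsp90 relatives, Ern1, Eif2ak3 and Atf6, up to 2 highest and 2 lowest called genes of each of 9 other pathway lists and comparison, and the 5 nearest patterns to Hspa5 and Xbp1. Others were named after their values were seen. The members and lists were chosen with earlier results of these data known. A list defined by protein ends was not analysed here, and 1 gene of the lists is not reported here. Python 3.11.15, pandas 2.3.3 and scipy 1.17.1 were used.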

Additional observations from a re-analysis of the deposited data

How the results depend on the processing

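With 1 library per group, no replicate could be left out. No paired analysis was possible because each group has 1 library. The count of the 10 genes called, 0 in every comparison and direction as deposited, stayed 0 with pseudocounts of 0.1 and 5 FPKM, minimum levels of 1, 10 and 0 FPKM, a 4-fold threshold, the 3 scalings, CPM from expected counts, and 2-fold with non-overlapping intervals. With a 1.5-fold threshold on the log2(FPKM + 1) scale, 1 gene was higher in Lef1 P2 against empty vector P2 (Dnajb9; 17.5% of all genes) and 1 lower in Lef1 P5 against Lef1 P2 (Xbp1; 20% of all genes). The median log2 ratio in Lef1 P2 against empty vector P2, 0.37 as deposited, was 0.21 with median-of-ratios, 0.21 with TMM and 0.53 with quantile scaling, and that in Lef1 P5 against Lef1 P2, -0.32, was -0.12, -0.14 and -0.59. The cause of the quantile values was not tested; genes at 20 FPKM or more had a median of -0.05 in Lef1 P2 against empty vector P2, and all genes 0.11. Of the 99 values for the 10 genes' counts and medians, 9 were as deposited, 82 stayed within the limit set for a like value and 8 did not. At this depth, as deposited, differences of Pdia4 and Sdf2l1 in Lef1 P2 or P5 against empty vector P2 lay within counting error, by the ratio intervals. So did those of Pdia3 and Dnajb9 in Lef1 P5 against empty vector P2. For Pdia4 in Lef1 P2 this depended on scaling. Its log2 ratio was -0.19 with median-of-ratios and TMM, below its interval as deposited (-0.13 to 0.07).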
